A study of Mus musculus with 4 samples.

Results

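Matricellular proteins are secreted into the extracellular matrix but, unlike collagens, do not mainly build it: they bind matrix proteins, growth factors and cell surface receptors, and so set how cells attach, spread and signal. The thrombospondins, tenascins, periostin (Postn), TGFBI (Tgfbi), SPARC (Sparc) and osteopontin (Spp1) are the classic families. In fat tissue they are best known as products of stromal and precursor cells, and several, SPARC and thrombospondin among them, are known to change with obesity and fibrosis. The group studied here was chosen by gene name, as every probe set annotated to exactly 1 of 10 symbols: Thbs1, Thbs2, Thbs3, Thbs4, Tnc, Tnxb, Postn, Tgfbi, Sparc and Spp1. The annotation used here named 12 probe sets for 8 of these 10 genes, out of 45037 probe sets and 17097 genes in all. No probe set was named for Thbs1 or Spp1, so both were not analysed here. Of the 8 measured genes, Thbs2, Tnc, Tgfbi and Sparc had 2 probe sets each, and Thbs3, Thbs4, Tnxb and Postn had 1 each.

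RNA came from cultured mouse brown adipocytes, fat cells that burn fuel to make heat, which carried a short hairpin RNA (shRNA) of scrambled sequence as control or one that targets Blnc1, a long noncoding RNA first known from brown fat. Both groups had been differentiated for 6 days, and each had 2 Affymetrix mouse PM strip arrays described as biological replicates. The comparison asks which transcripts differ when Blnc1 is depleted in these cells. The labels name no mouse strain, no cell clone and no second hairpin, so a difference between these groups belongs to these cultures and this hairpin. The level of Blnc1 itself was not analysed here.

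Values are log2 expression values, so 1 unit is a doubling of signal, and a probe set's value is not compared here with that of another probe set. A probe set at or below 2.55, the highest value of the control probes that match no mouse sequence, is called at background. A log2 fold change is the knockdown mean minus the scramble mean, and a probe set is called when the adjusted p of limma's test, over all 45037 probe sets, is under 0.05. Adipoq and Fabp4, markers of fat cells in general, had log2 fold changes of 0.07 and 0.02 and did not pass the test. Both lie near the top of the range of values. The third fat cell marker measured, the lipase gene Lipe, read 7.88 on both scramble arrays and 7.56 on both knockdown arrays and did not pass either (log2 fold change -0.33, adjusted p = 0.0711). All 4 brown fat markers examined (Cidea, Ucp1, Dio2 and Cox8b) were called lower in knockdown, where 6.24% of all genes were. Measures of RNA quality differed as well: for Actb, the 3' control probe set exceeded the 5' one by 0.99 and 1.15 log2 units in scramble and by 1.77 and 1.88 in knockdown. The 18S ribosomal RNA control (its middle probe set) read 5.13 and 4.43 in scramble and 6.64 and 7.01 in knockdown. The part of these measures in the results below was not tested.

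The promoter sequences of Postn, Tnc, Thbs2 and Tnxb belong to 4 of the 7 members called higher on the knockdown arrays. They come from RefSeq (GRCm38.p6), read 5′ to 3′ on the strand of the gene, and end at the base before an annotated start. Capitals mark letters that match, on either strand, 1 of 4 motifs, and matches to the other motifs given after the sequences are left in lower case. The 4 include the TATA box, spelled TATAAA, and the CCAAT box. The site of the AP-1 factors was also searched, which is spelled TGANTCA, where N is any base. The site of the TEAD factors, which act downstream of the Hippo pathway, was searched as GGAATG. Each of the 4 sequences holds at least 1 match to these motifs. The other called members differed: in the 250 bases before the start, Tgfbi and Sparc had no match and Thbs3 had a CCAAT match only. The 4 sequences therefore do not stand for all members that rose.
Postn, chr3:54361007-54361106, plus strand: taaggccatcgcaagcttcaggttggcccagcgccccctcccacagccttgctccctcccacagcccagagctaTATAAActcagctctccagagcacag
Tnc, chr4:64047016-64047165, minus strand: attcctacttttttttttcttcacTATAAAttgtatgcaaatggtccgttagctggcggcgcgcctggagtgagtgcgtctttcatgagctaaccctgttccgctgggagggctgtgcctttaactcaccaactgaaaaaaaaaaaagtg
Thbs2, chr17:14694263-14694412, minus strand: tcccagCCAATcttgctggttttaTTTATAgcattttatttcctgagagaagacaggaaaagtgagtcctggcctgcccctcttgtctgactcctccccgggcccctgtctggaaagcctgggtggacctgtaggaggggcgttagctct
Tnxb, chr17:34670435-34670534, plus strand: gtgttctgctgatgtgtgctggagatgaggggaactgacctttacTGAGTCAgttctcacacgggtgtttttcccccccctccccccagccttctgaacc

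All 8 measured members had a promoter entry, with 10 start sites in all because Postn and Tnc have 2 each. In the 250 bases before each start, TATAAA was found on either strand in 4 of the 10 windows (those of Thbs2, Tnc and 1 of the 2 of Postn), against 12.4% of 32851 mouse promoters. The 2 Tnc windows overlap, and their TATAAA match is 1 site counted in both. In the Postn window shown the TATA letters lie 26 to 21 bases before the start. In the Tnc window shown the TATA letters lie 126 to 121 bases before the start. In the other Tnc window, not printed, the same site lies 205 to 200 bases before its own start. That window also holds the letters tatataagc in the last 60 bases before its start, which the exact search for TATAAA does not match. Whether any of these matches works as a TATA box was not tested. In Thbs2 they lie on the opposite strand, 126 to 121 bases before the start. The AP-1 letters were found in Tnxb only (6.75% of all promoters), 55 to 49 bases before the start, and the TEAD letters in Thbs4 only (12.6% of all promoters). The CCAAT letters were in 2 of the 10 windows, those of Thbs2 and Thbs3 (33.8% of all promoters). The short SMAD letters GTCTG, which 42.2% of promoters hold, were in 7 of the 10 windows. The letters GGGCGG, bound by SP1, were in 5 windows (32.7% of all promoters). The E-box letters CANNTG, bound by basic helix-loop-helix factors, were in 7 (66.2%). The GGGCGG site and some E-box sites of the overlapping Tnc windows are likewise the same sites, counted in both. The 10-letter CArG box bound by serum response factor was in none of the 10 windows (1.47% of all promoters). These matches describe the letters in the windows and were not tested against the expression values.

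Of the 12 matricellular probe sets, 10 were higher on the knockdown arrays, 0 were lower and 2 were not called, where 8.73% of all 45037 probe sets were called higher and 5.38% lower. As the members were chosen with earlier results of these data known, these shares are a description and not a test. The 10 called probe sets belonged to 7 of the 8 measured genes: Thbs2, Thbs3, Tnc, Tnxb, Postn, Tgfbi and Sparc. The exception, Thbs4, was at background on all 4 arrays, as was the second probe set of Tnc. In each of the 10 called probe sets both knockdown arrays read above both scramble arrays, which holds for 24.7% of all probe sets. The median log2 fold change of the 12 probe sets, with those 2 at background included, was 1.00, against -0.05 over all probe sets. Called with a log2 fold change of at least 1 were 6 of the 12, where 1.91% of all probe sets were. By the brightest probe set of each gene, 7 of 8 members were called higher, where 10.6% of all 17097 genes were, and their median, Thbs4 included, was 1.28 against -0.04. As bulk cultures were measured, more cells of a type and more RNA per cell cannot be told apart.

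**Figure D1:**
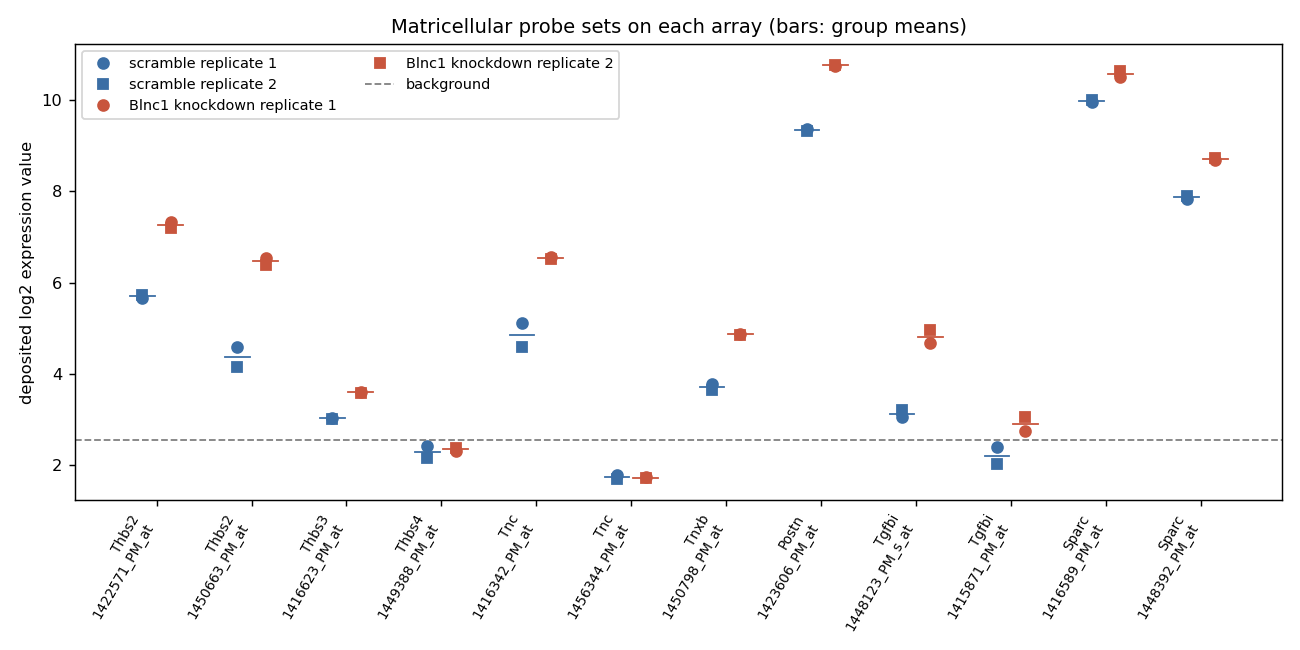
Deposited log2 values (vertical axis) of the 12 matricellular probe sets (horizontal axis) on each of the 4 arrays, with scramble in blue and Blnc1 knockdown in red, circles for replicate 1 and squares for replicate 2. Short bars are group means and the dashed line is the background value of 2.55. In 10 probe sets both red points lie above both blue points, and Thbs4 and the second Tnc probe set lie under the dashed line.

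The thrombospondins are secreted glycoproteins of a trimeric subgroup (Thbs1 and Thbs2), known for blocking blood vessel growth, and a pentameric subgroup that includes Thbs3 and Thbs4. Thbs2, which also clears matrix proteases from the cell surface and shapes collagen fibrils, read 5.66 and 5.74 in scramble and 7.33 and 7.21 in knockdown with probe set 1422571_PM_at. Both knockdown arrays were far above both scramble arrays, whose values lay within 0.1 of each other. Its log2 fold change was 1.57 ± 0.10 (SE; 2 arrays a group), a rise of 2.96-fold (limma adjusted p = 0.000625). The second probe set, 1450663_PM_at, read 4.59 and 4.16 in scramble and 6.54 and 6.39 in knockdown. Its rise was 4.26-fold (log2 fold change 2.09 ± 0.16 SE, adjusted p = 0.000784), the largest among the 12 probe sets. It lay at the 99.9th percentile of log2 fold changes over all probe sets.

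Thbs3, a pentameric thrombospondin of bone and cartilage, was dim. It read 3.03 and 3.01 in scramble and 3.61 and 3.58 in knockdown. The groups did not overlap and replicates were close, yet the change was small: a log2 fold change of 0.57 ± 0.10 (SE), or 1.49-fold (adjusted p = 0.0117). With 1 knockdown array left out the log2 fold change was as large but not called: 0.56 without knockdown replicate 1 (adjusted p = 0.0821) and 0.59 without replicate 2 (0.0803). The knockdown group then holds 1 array, which is assumed to vary like the scramble arrays. Thbs4, known from tendon, muscle and nerve injury, read 2.42 and 2.15 in scramble and 2.31 and 2.37 in knockdown. All 4 values were at background and the groups overlapped, so its difference is one of background values and is not read as a change.

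Tenascins are large multimeric proteins with fibronectin type III repeats. Tenascin-C (Tnc), low in most adult tissues and induced in development and wound repair, read 5.11 and 4.58 in scramble and 6.57 and 6.52 in knockdown with probe set 1416342_PM_at. The knockdown arrays agreed closely, while the scramble arrays differed by 0.5 units but stayed below them. The rise was 3.25-fold (log2 fold change 1.70 ± 0.17 SE, adjusted p = 0.00201), with log2 fold changes of 1.43 without scramble replicate 2 and 1.97 without scramble replicate 1. The other Tnc probe set, 1456344_PM_at, read 1.77 and 1.68 in scramble and 1.74 and 1.70 in knockdown. It was at background everywhere and so gives only an upper bound. With the mean of both probe sets the log2 fold change of Tnc was 0.85 and was still called (adjusted p = 0.00703).

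Tenascin-X (Tnxb), which binds collagen fibrils in skin and loose connective tissue and whose loss causes a form of Ehlers-Danlos syndrome, read 3.78 and 3.65 in scramble and 4.88 and 4.86 in knockdown. Both groups were above background and clearly apart. The rise was 2.23-fold (log2 fold change 1.16 ± 0.10 SE, adjusted p = 0.00133), and it was called in all 12 alternatives run on this probe set, with log2 fold changes between 1.09 and 1.22. Of the other tenascins, named outside the rule, Tnn had a log2 fold change of -0.25 and was not called, and Tnr was at background on all arrays.

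Periostin and TGFBI share a structure of fasciclin domains, and both bind collagen and integrins. Postn, a product of fibroblasts and osteoblast precursors that also helps cross-link collagen, read 9.37 and 9.33 in scramble and 10.75 and 10.78 in knockdown. Replicates differed by less than 0.1 and the groups by more than 1 unit. The rise was 2.66-fold (log2 fold change 1.41 ± 0.10 SE, adjusted p = 0.000654), and log2 fold changes stayed between 1.39 and 1.48 in all 14 alternatives run.

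Tgfbi, named for its induction by TGF-beta, read 3.05 and 3.20 in scramble and 4.68 and 4.96 in knockdown with probe set 1448123_PM_s_at, whose suffix marks probes that can match more than 1 transcript. The groups were well apart, and the rise was 3.23-fold (log2 fold change 1.69 ± 0.13 SE, adjusted p = 0.00088). The second probe set, 1415871_PM_at, read 2.39 and 2.01 in scramble, both at background, and 2.75 and 3.05 in knockdown. Since scramble has only an upper bound there, knockdown was at least 1.28-fold higher on this probe set (adjusted p = 0.032). That call was lost without scramble replicate 2 (adjusted p = 0.0729), knockdown replicate 1 (0.0556) or knockdown replicate 2 (0.176).

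Sparc encodes a calcium- and collagen-binding glycoprotein that is secreted by fibroblasts and fat cells and restrains adipocyte differentiation in mice. Probe set 1416589_PM_at read 9.96 and 9.997 in scramble and 10.51 and 10.64 in knockdown. The groups did not overlap, and the rise was 1.51-fold (log2 fold change 0.60 ± 0.10 SE, adjusted p = 0.0124). It was not called without knockdown replicate 1 (log2 fold change 0.66, adjusted p = 0.0527) or replicate 2 (0.53, adjusted p = 0.104). The other Sparc probe set, 1448392_PM_at, read 7.85 and 7.91 in scramble and 8.69 and 8.73 in knockdown. Its rise was 1.78-fold (log2 fold change 0.84 ± 0.10 SE, adjusted p = 0.00336), and it was called with any single array left out.

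**Figure D2:**
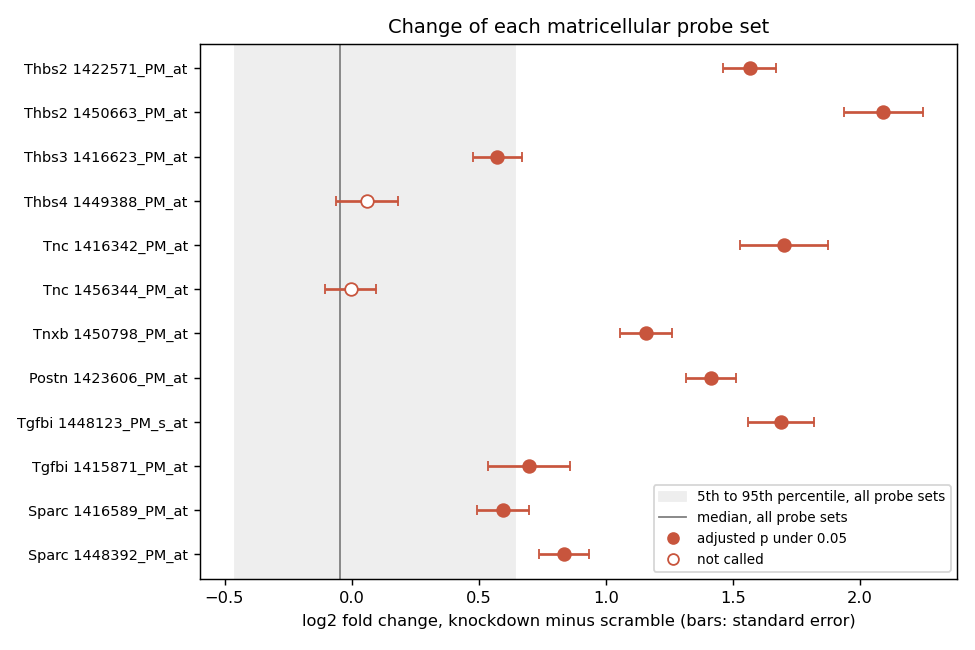
Log2 fold change (horizontal axis, knockdown minus scramble) of each matricellular probe set (rows), with standard errors from limma as bars. Filled points have an adjusted p under 0.05, the grey band spans the 5th to 95th percentile of all probe sets (-0.46 to 0.64) and the grey line is their median of -0.05. The changes of Thbs3 and of the first Sparc probe set lie within the band, and 8 called probe sets lie beyond it. The values of Thbs4 and of the second Tnc probe set are differences between background values, and the second Tgfbi probe set was at background in scramble.

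The members differed in the size of their change. Thbs2, Tnc, Tgfbi and Postn rose by 2.66-fold to 3.25-fold by their brightest probe sets, Tnxb by 2.23-fold, and Sparc and Thbs3 by 1.51-fold and 1.49-fold. Against a minimum log2 fold change of 0.5 (limma's treat), 6 of the 12 probe sets were called: both of Thbs2 and 1 each of Tnc, Tnxb, Postn and Tgfbi. Without knockdown replicate 1 or replicate 2, 7 probe sets were called, and 5 genes by their brightest probe set. Over the whole table the number called higher also fell without those arrays, from 3933 to 1906 and 1486.

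**Figure D3:**
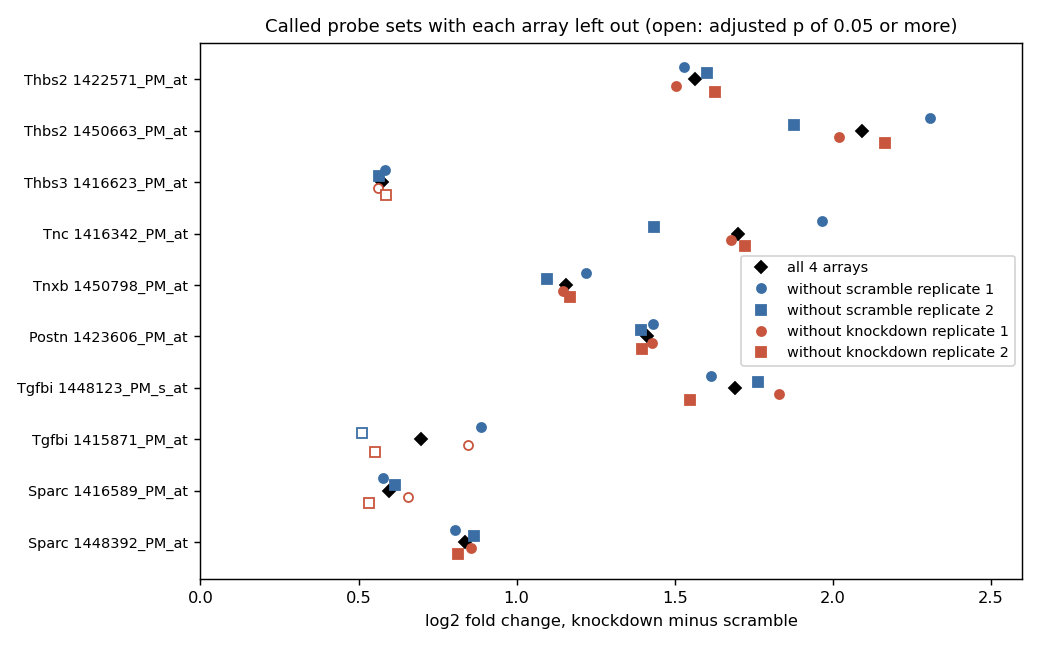
Log2 fold change (horizontal axis) of the 10 called matricellular probe sets (rows) with all 4 arrays (black diamonds) and with each array left out (blue for a scramble array, red for a knockdown array). Open symbols have an adjusted p of 0.05 or more. All values are above 0, and open symbols occur for Thbs3, the second Tgfbi probe set and the first Sparc probe set.

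Agreement between probe sets could be tested for Thbs2 and Sparc, the 2 members whose probe sets were both above background on average in each group. In both genes both probe sets were called higher. Among 1616 genes with such a pair and at least 1 of it called, 25.9% had both called in the same direction. The probe sets of Thbs2 differed in log2 fold change by 0.53 ± 0.19 (SE; limma on the difference per array, adjusted p = 0.117 over 4255 genes with a pair) and those of Sparc by 0.24 ± 0.12 (adjusted p = 0.235), and neither passed. Over the 4255 genes, 11.9% of pairs differed, with a median absolute difference of 0.24. For Tnc and Tgfbi the second probe set was at background in scramble, and no difference was tested.

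**Figure D4:**
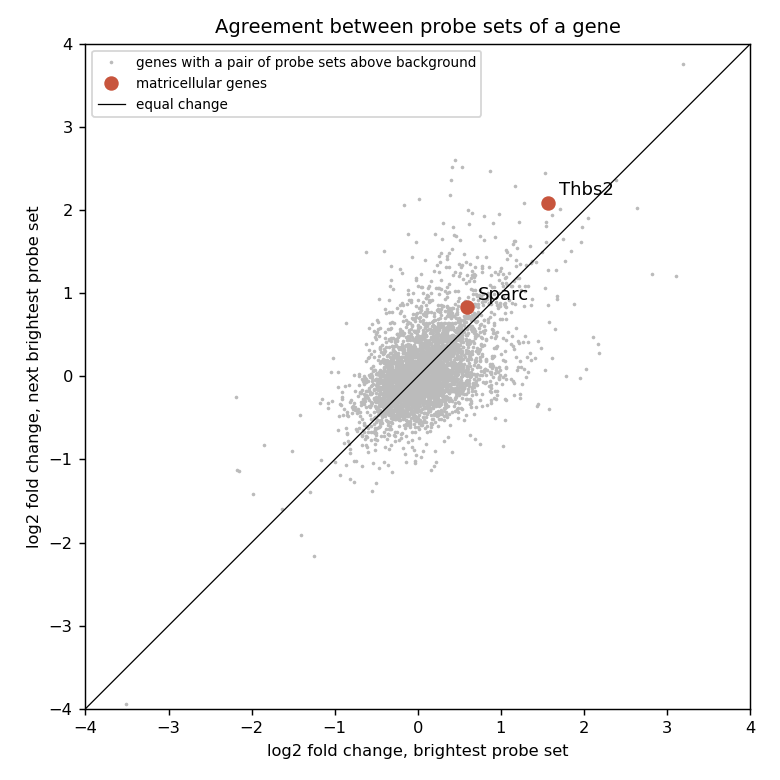
Log2 fold change of the brightest (horizontal axis) and next brightest (vertical axis) probe set for 4255 genes with both above background on average in each group (grey), with Thbs2 and Sparc in red. The line marks equal change. Both lie above the line, Thbs2 with 1.57 against 2.09 and Sparc with 0.60 against 0.84.

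The genes with the most similar values across the 4 arrays were searched among 12416 genes above background, with the members left out. Similarity was the distance between log2 values after each probe set's own mean was subtracted. For Thbs2 the nearest genes were Plpp1, a lipid phosphatase, and Sfrp2, a secreted Wnt modulator, at distances of 0.05 and 0.06 log2 units. For Postn they were Nabp1 and the lysophosphatidic acid receptor Lpar1 (0.06 and 0.07). For Tnc they were the scavenger receptor Colec12 and the IGF-binding protein Igfbp6 (0.11 and 0.19), and for Tgfbi the actin-binding protein Pfn2 and the histone gene H3c11 (0.11 and 0.12), whose probe set may read other near-identical histone H3 genes. With 4 arrays in 2 groups, genes with a similar difference between the groups are near each other by construction.

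Genes next to the members on the chromosome were also read. Of the 14 nearest measured protein-coding neighbours of the 7 called members, 3 were higher, 1 was lower and 10 were not called, where 10.6% of all genes were higher and 6.24% lower. The neighbours named here were chosen after their values had been seen. Smoc2, the neighbour of Thbs2 and itself a matricellular protein of the SPARC family, rose 3.67-fold (2.86 and 2.84 in scramble, 4.83 and 4.62 in knockdown, adjusted p = 0.000513). Pappa, a protease that frees IGF from its binding proteins and lies beside Tnc, rose 3.69-fold (adjusted p = 0.000625). Smad5, beside Tgfbi, rose 1.35-fold (adjusted p = 0.039), and the complement gene C4b, beside Tnxb, was the lower neighbour (1.37-fold, adjusted p = 0.0307). Mtx1 and Muc1, on either side of Thbs3, had log2 fold changes of -0.23 and -0.30 and were not called.

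Among 31 other measured matricellular genes, 12 rose, 1 fell and 18 did not pass. Their median log2 fold change was 0.10, and 7 were at background in both groups. Ccn3, a CCN family protein, rose most: it read 5.16 and 4.54 in scramble and 7.06 and 7.41 in knockdown (5.21-fold, adjusted p = 0.00136), from a probe set of a type that can match more than 1 transcript. Smoc2 (above) and Ptn, a heparin-binding growth factor (3.57-fold, adjusted p = 0.000515), were the next largest rises. The lower gene was Angptl4, a lipoprotein lipase inhibitor that also acts in the matrix and is induced by PPAR factors. It read 9.56 and 9.55 in scramble and 7.75 and 7.51 in knockdown (3.81-fold lower, adjusted p = 0.000513). Its probe set is also of a type that can match more than 1 transcript.

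Of 26 measured cell surface receptors for these proteins, 9 rose, 0 fell and 17 did not pass. Their median log2 fold change was 0.18. The number higher was 5 without knockdown replicate 2. Itga8, an integrin subunit that binds tenascin-C and osteopontin, read 4.13 and 3.90 in scramble and 6.53 and 6.57 in knockdown (5.79-fold, adjusted p = 0.000342). Cd44, a hyaluronan and osteopontin receptor, rose 2.57-fold (adjusted p = 0.00319), Itgb5, a subunit of a periostin and vitronectin receptor, 2.06-fold (adjusted p = 0.00163), and the collagen receptor gene Ddr2 1.96-fold (adjusted p = 0.0026). The classic thrombospondin receptors, named outside the rule, differed: Cd36 rose 1.32-fold (adjusted p = 0.0457), while Cd47 had a log2 fold change of 0.02 (adjusted p = 0.918). Whether the members and their receptors differ in change was not tested.

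The TGF-beta axis, which induces Tgfbi, Postn and Tnc in many cells and whose latent form thrombospondin-1 can activate, was read from a list of its own. Among its 24 measured genes, 6 rose, 2 fell and 16 did not pass, where 10.6% of all genes were higher and 6.24% lower, and the median log2 fold change was 0.18. Ltbp1, a latent TGF-beta binding protein, read 2.49 and 2.55 in scramble, at background on average, and 3.25 and 3.29 in knockdown (adjusted p = 0.00485). Its relative Ltbp2 had a log2 fold change of 0.62 (adjusted p = 0.011). The inhibitory SMAD gene Smad6 (0.50, adjusted p = 0.0194) and the co-receptor gene Tgfbr3 (0.46, adjusted p = 0.0252) were also higher. The lower genes, named outside the rule, were Ltbp4 (-0.45, adjusted p = 0.0384) and the receptor gene Tgfbr2 (-0.39, adjusted p = 0.0426). Of the ligand genes, also named outside the rule, Tgfb3 had a log2 fold change of 0.42 and was not called. Tgfb1 and Tgfb2 were at background on average in both groups. Without knockdown replicates 1 and 2, 2 and 1 genes of this axis were higher and 0 were lower. After median centring of the arrays, and without scramble replicate 2, 0 were lower.

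The list of matrix partners and proteases holds matrix proteins, proteases and their inhibitors, and proteins that process or crosslink collagen. Of its 32 measured genes, 22 rose, 0 fell and 10 did not pass. The median log2 fold change was 0.71. Plod2, a collagen lysyl hydroxylase, rose 4.33-fold (adjusted p = 0.000467) and the fibrillar collagen gene Col1a1 3.35-fold (adjusted p = 0.000474). Timp3, a matrix-bound protease inhibitor, rose 2.92-fold (adjusted p = 0.000625) and the membrane protease gene Mmp14 2.42-fold (adjusted p = 0.00117). Fn1, which encodes fibronectin, the ligand that anchors tenascins and periostin and is named outside the rule, rose 1.81-fold (adjusted p = 0.00337). These lists were chosen with earlier results of these data known, and their counts stand beside 10.6% higher and 6.24% lower over all genes.

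**Figure D5:**
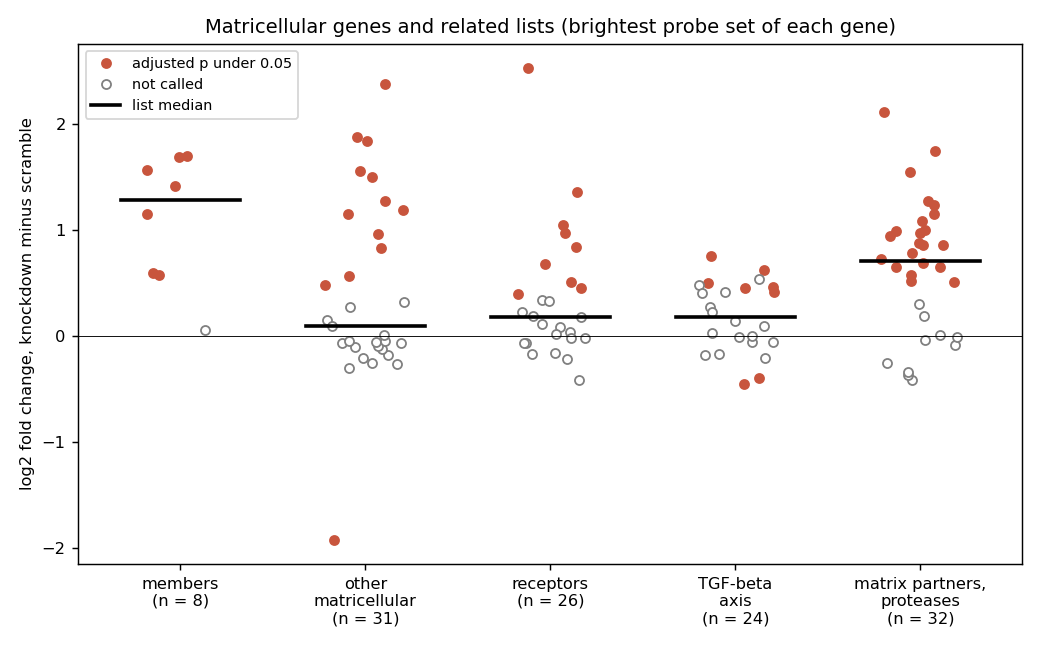
Log2 fold change (vertical axis, knockdown minus scramble) of each gene by its brightest probe set, for the 8 measured members and 4 related lists (horizontal axis). Red points have an adjusted p under 0.05, open points were not called and bars are medians. The medians are 1.28 for the members, 0.10, 0.18 and 0.18 for other matricellular genes, receptors and the TGF-beta axis, and 0.71 for matrix partners and proteases.

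Some markers of other cell types differed between the groups, and their part in the rise of the members was not tested. The marker counts that follow stand beside 10.6% higher and 6.24% lower over all genes. Of 7 measured preadipocyte and fibroblast markers, 4 were higher and 0 lower: Cd34, Pdgfra, Pdgfrb and Dlk1. The log2 summed signal adds the markers' values after they are taken off the log2 scale, those at background included. The brightest probe set therefore weighs most, and the sum is not a level of a cell type. For these 7 markers the sum was 6.55 and 6.79 on the scramble arrays and 7.30 on both knockdown arrays. Cd34, Pi16 and Dpp4 were at background on average in scramble. Pdgfra, the defining fibroblast receptor, read 2.90 and 2.72 in scramble and 3.87 and 3.75 in knockdown. Of 8 macrophage markers, a cell type known for Spp1, 4 (Lyz2, Ptprc, Mrc1 and Itgam) were at background on all arrays and 1, Adgre1, was higher. Their log2 summed signal was 5.87 and 5.88 in scramble and 5.97 and 6.03 in knockdown. Of 4 smooth muscle and myofibroblast markers only Acta2 was higher, with a log2 fold change of 0.53 (log2 summed signal 8.72 to 8.77 against 9.21 to 9.27). Acta2 alone read 8.63 and 8.69 in scramble and 9.16 and 9.22 in knockdown, so the sum mostly restates it. Of 3 tendon markers, where tenascins and thrombospondins are abundant, Tnmd was higher (log2 fold change 1.17) while Scx and Mkx were at background on all arrays (log2 summed signal 4.11 to 4.16 against 4.42 to 4.77). Of 5 endothelial markers 1, Tek, was higher, with Cdh5 and Emcn at background on all arrays (log2 summed signal 5.22 to 5.23 against 5.22 to 5.34). No platelet, osteoblast or Schwann cell marker was called among 4, 3 and 2 measured. All 6 hepatocyte markers were called lower in knockdown, though Serpina1a was at background on all arrays, with a log2 summed signal of 7.37 to 7.58 in scramble and 5.21 to 5.92 in knockdown.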

How the data were processed

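Values on a log2 scale, 1 per probe set and array, were deposited by the authors and used as given. They run from 1.05 to 12.36, from which the log2 scale was taken. Per the submitters' processing notes, affy, RMA and limma were used, with no version or role given, and the normalization is otherwise not given in the sources used here. Labelled RNA was made from 250 ng of total RNA by a 3' method, per the labels' protocols. The 104 control probe sets were left out of tests. Group was the only term of a two-sided limma test (version 3.58.1, R 4.3.3; eBayes after lmFit) on 45037 probe sets, with Benjamini-Hochberg adjustment over all of them and a threshold of 0.05. Residual degrees of freedom were 2 and prior ones 4.93. An exact permutation test of 2 against 2 arrays cannot go below p = 0.333, so none was used. With 2 arrays a group, the number of arrays limits the precision (median SE 0.11).

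Each gene was read from its brightest probe set, by the mean over the 4 arrays. Background was the highest value of 22 antigenomic control probe sets with 3 to 24 G or C bases. All members and their probe sets were named. Of each other list, up to 4 called genes with the largest change were named, or all where 5 or fewer were called. Genes of the related lists named beyond this are marked as outside the rule. For up to 4 called members, the 2 most similar non-member genes were named. Members and lists were chosen with earlier results of these data known. The test of pairs of probe sets and the neighbouring genes were added after the values had been seen. Of the listed genes, those with no named probe set were not used. The fit was tested on simulated data. Replicate numbers were not taken as pairs, since deviations of same-numbered arrays correlated at r = 0.04. Alternatives were quantile normalization, median centring, a filter on the dimmest 40 percent, eBayes with a trend or robust, leaving out probe sets ending in _s_at or _x_at, 1 probe set or the mean per gene, a replicate block, each array left out, and treat against 0.5. Plots were drawn with matplotlib 3.10.9.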

Additional observations from a re-analysis of the deposited data

How the results depend on the processing

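With 2 arrays a group and a single hairpin, the results describe these cultures. A fit without 1 array leaves a group of 1 array, assumed to vary like the other group. Over the whole table, fewer probe sets were then called higher whichever array was left out, and the drop was larger without a knockdown array. No member probe set that was called changed direction in any alternative run. Member probe sets called higher numbered 6 with treat against 0.5, and 7 to 10 over the fits that left out 1 array, and the members' other counts moved by no more than 1.5 times. With treat, 3 receptors, 7 matrix partners and proteases and 0 TGF-beta axis genes were higher, and 0 of the TGF-beta axis were lower. Receptors called higher ranged from 5 to 8 with 1 array left out, TGF-beta axis genes from 1 to 8 higher and 0 to 1 lower, and matrix partners from 0 to 1 lower. TGF-beta axis genes called lower numbered 0 after median centring and 1 with the replicate block. Matrix partners called lower numbered 1 with the replicate block, 1 when probe sets of a gene were averaged and 1 when eBayes used a trend. Same-numbered arrays share only a number, and the block left the members at 10 probe sets and 7 genes higher. The cause of these shifts was not tested. Probe sets called higher and lower over the whole table were 3933 and 2423, against 3251 and 2871 after quantile normalization and 4771 and 1634 after median centring, where the median over all probe sets moved from -0.05 to -0.02 and 0.02. Without knockdown replicate 1 they were 1906 and 617, without replicate 2 1486 and 439, with treat 590 and 101, and 1941 and 1228 with 1 probe set per gene or 1792 and 1223 with the mean, over fewer features. The counts of member probe sets could not be given for the 2 settings with 1 value per gene. Thbs4, the dim Tnc probe set and the dimmer, called Tgfbi probe set were left out with the dimmest 40 percent.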
